A study of Homo sapiens with 9 samples.

Results

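The ZBTB and ZSCAN genes encode zinc finger transcription factors, and their transcripts were followed here in human cells deprived of zinc. Members were the protein-coding genes of the deposited expression table whose symbol is ZBTB or ZSCAN followed by a number and, in some, a letter. This gave 63 genes, 42 ZBTB and 21 ZSCAN, of 20320 protein-coding genes and 57766 genes in all. ZBTB8OS, the gene of archease, a cofactor of the tRNA ligase, meets the rule by its symbol alone: it is named for lying on the opposite strand of its neighbour ZBTB8A, and its protein held 0 zinc fingers. It is counted below where a count covers all 63 genes and is left out of the summed levels.

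The cells were of HEK293 Freestyle, a suspension-adapted derivative of the established line HEK293, which comes from human embryonic kidney. They spent 36 h in Freestyle medium depleted of Zn(II) (depleted), in depleted medium to which Zn(II) had been returned (repleted) or in Freestyle medium as supplied (full). All groups share that single line and the washes in PBS before plating, and the labels also mention a wash with EDTA at plating. Polyadenylated RNA of 3 cultures per group, described in the labels as biological triplicates, gave 9 libraries.

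A C2H2 zinc finger is a short fold in which a pair of cysteines and a pair of histidines hold a zinc ion, and tandem fingers read DNA. ZBTB proteins join such fingers to an amino-terminal BTB/POZ domain, which forms dimers and, in several members, recruits corepressors such as NCOR1, BCOR and SIN3A or the ubiquitin ligase scaffold CUL3. ZSCAN proteins join them to a SCAN domain, a dimerization module without known catalytic function that is shared with the ZKSCAN proteins. Both families thus need zinc to fold their DNA-binding part, and transcript levels do not report on that folding.

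The deposited values are log2(RPKM + 1) per gene, RPKM being reads normalised to transcript length and sequencing depth. RPKM below was obtained by undoing the log; every log2 change is a difference of the deposited values, so that changes of weakly expressed genes come out smaller than their fold in RPKM. The test was limma over the 15774 genes that reached 1 RPKM in 3 or more libraries, and a gene is said to be called when its Benjamini-Hochberg adjusted p over all of them was under 0.05. The estimated depth was 16800000 to 23500000 reads per library. Across tested genes, Pearson's r was 0.983 to 0.9874 between libraries of the same group and 0.9356 to 0.941 between depleted libraries and the rest. MT2A, a zinc-induced metallothionein gene, averaged 6.46 ± 0.687 RPKM in depleted, 93.5 ± 3.34 in repleted and 191 ± 8.9 in full medium (SD, n = 3 each), so that it was lowest where the labels say zinc was removed, and the repleted level lay below the full one. Of 7 genes known from HEK293 cells, 6 were found, and in depleted against full medium 1 of them was higher and 4 were lower. VIM, the higher one, averaged 665 ± 11.3 RPKM in depleted, 585 ± 4.67 in repleted and 577 ± 6.12 in full medium and makes up most of their sum, which was 807 to 827 RPKM in depleted, 777 to 800 in repleted and 794 to 808 in full libraries. PAX2, LHX1, KRT8 and KRT18 had log2 changes of -1.43, -0.88, -0.57 and -0.38 and were called, and NEFM, at -0.37, was not. The 7 genes found of those listed as markers of other lineages summed to 5.18 to 5.92 RPKM in depleted, 5.4 to 7.16 in repleted and 8.51 to 9.74 in full libraries, most of it from EPCAM, and HBB was listed at 0 in all 9. EPCAM was itself called lower in depleted than in full medium (log2 -0.82, limma adjusted p = 0.000532), so this sum mainly follows EPCAM. The part of these shifts in the results below was not tested. In such bulk libraries, fewer cells with a transcript and less of it per cell cannot be told apart.

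Of the 63 genes, 54 passed the filter, 39 ZBTB and 15 ZSCAN. The 9 that did not were ZBTB20, ZBTB8B, ZBTB32, ZSCAN1, ZSCAN4, ZSCAN5B, ZSCAN5C, ZSCAN5D and ZSCAN10, with means over the 9 libraries of 0 to 0.638 RPKM. Among them are ZSCAN4 and ZSCAN10, factors of the early embryo and of embryonic stem cells, and ZSCAN1, listed at 0 throughout. The 53 tested zinc finger genes were expressed at low levels, with means of 1.56 to 20.9 RPKM and a median of 6.13 RPKM, against a median of 10.2 RPKM for all genes tested. Only 13 of them reached 10 RPKM and 11 stayed under 3 RPKM. The gene with the highest mean was ZBTB8OS at 33.7 RPKM. Next came ZBTB12 at 20.9 RPKM, ZBTB38, a protein that binds methylated CpG, at 18.2 RPKM, ZSCAN18 at 17.8 RPKM, and ZBTB33, known as Kaiso and also a reader of methylated CpG, at 16.1 RPKM. The telomere-binding ZBTB48 (TZAP) stood beside ZBTB33 at 16.1 RPKM, and its full libraries ranged from 13.68 to 23.43 RPKM.

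**Figure D1:**
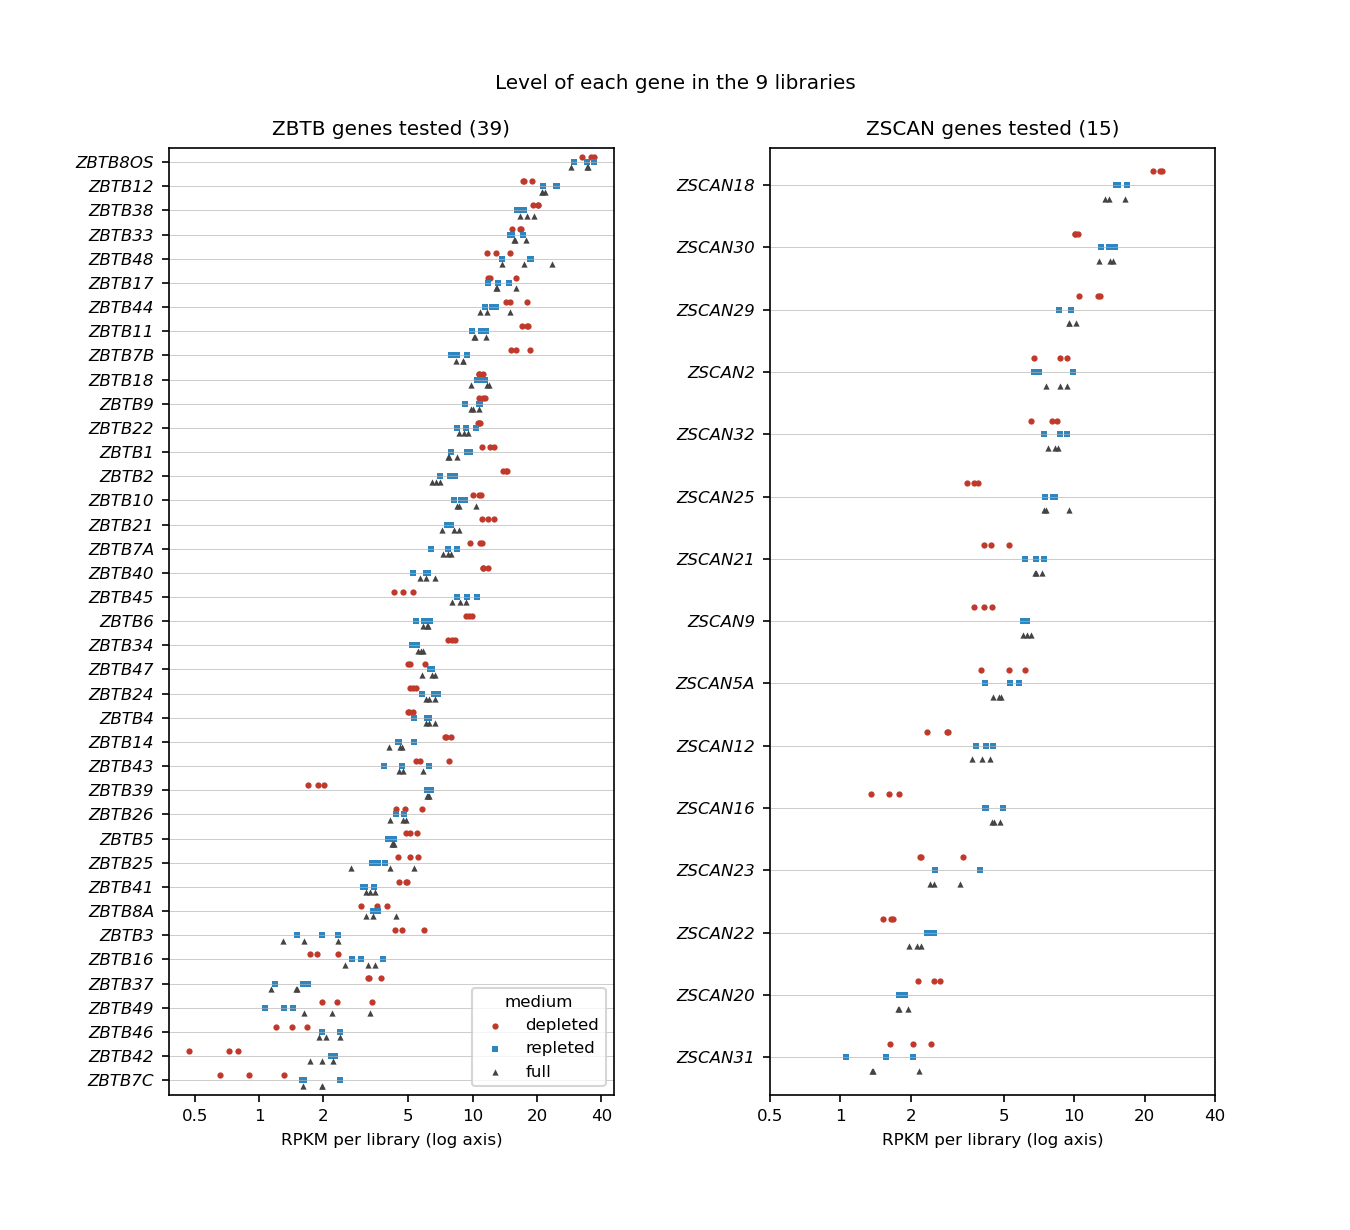
RPKM of each tested gene in each library on a log axis, ZBTB genes on the left and ZSCAN genes on the right, ordered by their mean over 9 libraries; circles are depleted, squares repleted and triangles full libraries. Most genes lie between 1 and 20 RPKM; ZBTB39 in depleted medium, at 1.69 to 2.02 RPKM, lies apart from its other 6 libraries, at 6.08 to 6.36 RPKM.

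Depleted against full medium addresses the response of the cells to zinc starvation. In this comparison 34 of the 54 tested genes were called, 19 higher and 15 lower, which is 63.0%, beside 60.9% of all genes tested. By direction, 35.2% of the tested members were higher, beside 29.8% of all genes, and 27.8% were lower, beside 31.2%. The families as a whole thus changed about as often as any gene in these cells. Their median log2 change was 0.1, against 0.001 over all genes, and the median absolute change was 0.34, against 0.36. The depleted and full libraries did not overlap for 35 of the 54, beside 67.6% of all genes. Of the ZBTB genes 16 were higher and 9 lower of 39, and of the ZSCAN genes 3 were higher and 6 lower of 15; the difference between the families was not tested. Of the 34 calls, 24 held in all 17 alternative settings, 14 higher and 10 lower.

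**Figure D2:**
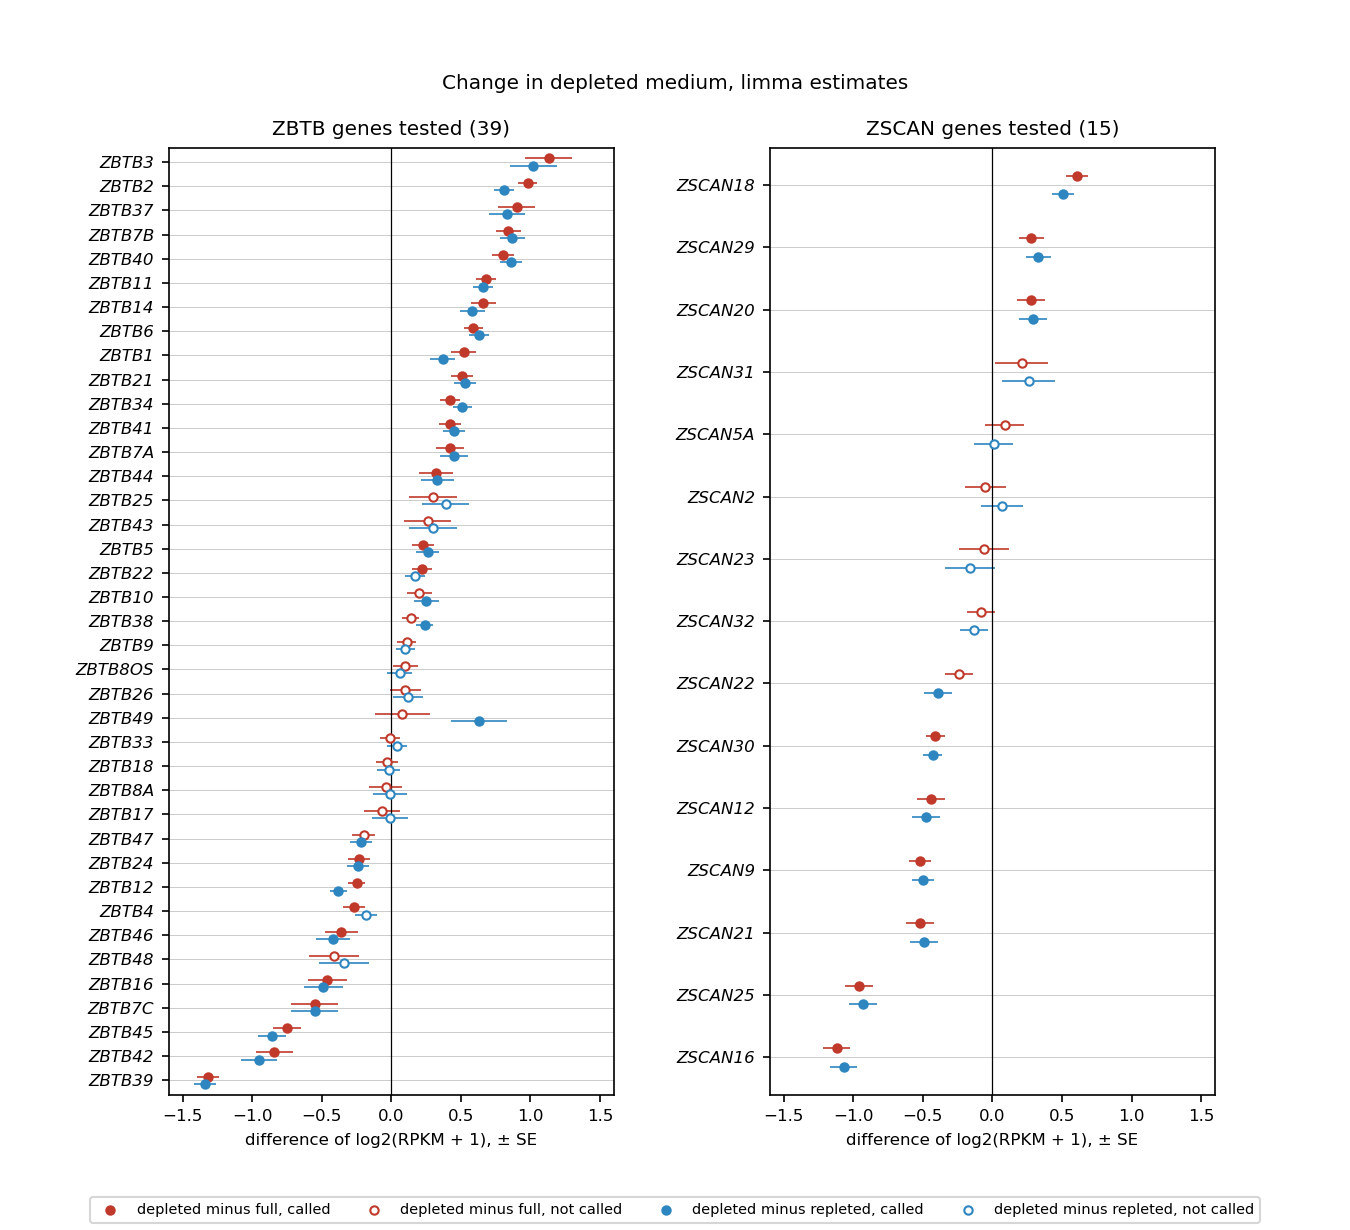
Difference of log2(RPKM + 1), ± SE, of each tested gene in depleted minus full medium (red) and depleted minus repleted medium (blue), which share the depleted libraries; filled points were called. ZBTB3 at 1.13 and ZBTB39 at -1.32 mark the ends of the range in depleted minus full medium, and ZBTB49 is the gene whose 2 points lie farthest apart.

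The largest rises were in ZBTB3, ZBTB2, ZBTB37, ZBTB7B and ZBTB40. ZBTB3 (ENSG00000185670) had 5.94, 4.68 and 4.34 RPKM in the depleted libraries, against 1.62, 2.33 and 1.3 RPKM in the full libraries. It stood 2.85-fold higher in depleted medium, without overlap between the groups (log2 1.13, SE 0.17, limma adjusted p = 0.000327). ZBTB2 (ENSG00000181472), a BTB factor with only 2 matched fingers, had 14.37, 13.88 and 14.49 RPKM in depleted against 6.73, 7.01 and 6.44 RPKM in full medium. Its libraries agreed closely within each group, and it rose 2.12-fold (log2 0.98, SE 0.07, limma adjusted p = 2.36e-06). ZBTB37 (ENSG00000185278) had 3.74, 3.28 and 3.24 RPKM in depleted and 1.14, 1.51 and 1.49 RPKM in full libraries. Every depleted library was above every full one, a 2.48-fold rise (log2 0.9, SE 0.13, limma adjusted p = 0.000209). The ZBTB37 gene overlaps GAS5, a host gene of small nucleolar RNAs on the opposite strand, which was far more abundant, at 145 ± 1.27 RPKM in depleted, 128 ± 10.2 in repleted and 119 ± 19 in full medium. Whether counting used the strand is not given in the sources used here, so reads of ZBTB37 and GAS5 may not be separate.

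ZBTB7B (ENSG00000160685), known as ThPOK for setting the CD4 lineage of T cells, had 18.44, 15.15 and 15.96 RPKM in the depleted libraries. In the full libraries it had 8.34, 9.02 and 9.01 RPKM. The groups did not overlap, and the rise was 1.88-fold (log2 0.84, SE 0.09, limma adjusted p = 2.75e-05). ZBTB40 (ENSG00000184677), a large protein with 13 matched fingers, had 11.15, 11.22 and 11.75 RPKM in depleted against 6.04, 6.69 and 5.69 RPKM in full medium. Its depleted libraries were all higher, by 1.85-fold on average (log2 0.8, SE 0.08, limma adjusted p = 2.18e-05).

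ZBTB11 (ENSG00000066422), with 12 fingers, had 17.87, 16.98 and 18.11 RPKM in depleted and 10.18, 11.53 and 10.24 RPKM in full libraries. It rose 1.66-fold, with no overlap (log2 0.68, SE 0.07, limma adjusted p = 2.64e-05). ZBTB14 (ENSG00000198081), also called ZF5 first described in mouse as a repressor at the Myc promoter, had 7.5, 7.89 and 7.44 RPKM in depleted against 4.07, 4.59 and 4.67 RPKM in full medium. Again the groups were apart, a 1.71-fold rise (log2 0.66, SE 0.09, limma adjusted p = 0.000119). ZSCAN18 (ENSG00000121413), the most abundant ZSCAN transcript, had 23.19, 23.85 and 21.63 RPKM in depleted and 13.49, 16.51 and 14.16 RPKM in full libraries. It was the largest rise of a ZSCAN gene, 1.56-fold (log2 0.61, SE 0.08, limma adjusted p = 0.000118).

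Smaller rises came in ZBTB6 (log2 0.59), ZBTB1 (0.52), ZBTB21 (0.51), ZBTB7A (0.42), ZBTB34 (0.42) and ZBTB41 (0.42), each called in all 17 settings and each without overlap between depleted and full libraries. ZBTB1, which is needed for lymphocyte development in mice, averaged 11.9 ± 0.776 RPKM in depleted and 7.95 ± 0.435 RPKM in full medium (SD, n = 3 each). ZBTB7A, known as LRF and as a repressor of fetal globin genes, averaged 10.5 ± 0.711 RPKM in depleted and 7.61 ± 0.35 RPKM in full medium. The remaining higher calls had log2 changes of 0.32 or less: ZBTB44, ZSCAN20, ZSCAN29, ZBTB5 and ZBTB22. All 5 were lost in some settings.

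Promoters of the members, whether higher, lower or not called, were searched for motifs. RefSeq promoter sequences of build GRCh38.p14 matched 54 of the 63 genes, all but ZBTB6, ZBTB10, ZBTB16, ZBTB17, ZBTB40, ZBTB41, ZSCAN16, ZSCAN5C and ZSCAN5D, and the 250 bases before the start were read on both strands. The search took 6 motifs: CACGTG (the E-box bound by MYC and MAX and by other factors of the bHLH class), TGCACNC or TGCGCNC (the core of the metal response element, the site of the zinc sensor MTF1), TGATGNAA (the core of the amino acid response element, bound by ATF4), the sequence TGACGTCA (the cyclic AMP response element), and the palindromic sites known for Kaiso and for NRF1. CACGTG was in 5 of the 16 higher members with a promoter, 31.2%, in 1 of the 13 lower ones, 7.69%, and in 2 of the 18 tested members that were not called, 11.1%. Among all tested genes with a promoter it was in 8.96%, in 11.0% of those that were higher and in 7.55% of those that were lower. Of the 6 motifs searched, CACGTG had the widest gap between higher and lower members. These shares are descriptions, with no test. The 5 are shown here on the strand of the gene with the E-box in capitals, chosen after their values were seen, so that the letters around it can be compared:
ZBTB11: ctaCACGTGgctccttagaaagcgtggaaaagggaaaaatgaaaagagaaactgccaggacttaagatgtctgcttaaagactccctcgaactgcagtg
ZBTB1: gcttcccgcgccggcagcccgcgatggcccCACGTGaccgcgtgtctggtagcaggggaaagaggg
ZBTB21: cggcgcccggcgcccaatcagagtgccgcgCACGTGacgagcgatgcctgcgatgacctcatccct
ZBTB37: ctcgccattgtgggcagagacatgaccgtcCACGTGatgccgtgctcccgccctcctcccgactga
ZSCAN18: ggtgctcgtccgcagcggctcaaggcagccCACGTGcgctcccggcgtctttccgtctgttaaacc

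The stretch of ZBTB11 is chr3:101677284-101677382 on the minus strand, with 241 bases between the E-box and the start of the gene. That of ZBTB1 is chr14:64503775-64503840 on the plus strand, with 76 bases between. For ZBTB21 it is chr21:42010371-42010436 on the minus strand, with 40 bases between. For ZBTB37 it is chr1:173868158-173868223 on the plus strand, with 186 bases between, and for ZSCAN18 chr19:58118589-58118654 on the minus strand, with 214 bases between. CACGTG and TGACGTCA read the same on both strands, and no motif searched contains another. Matches can still overlap. In ZSCAN18 a metal response element core, TGCGCTC, begins inside the E-box shown, so this gene counts under both motifs. TGACGTCA and the NRF1 site were each in 1 of the 16 higher members (6.25%) and in 0 of the 13 lower ones. Among all tested genes with a promoter they were in 3.07% and 1.98%. TGACGTCA was in 4.34% of all genes that were higher and in 1.87% of those that were lower. For the NRF1 site these shares were 2.88% and 0.76%, so the same direction of gap is seen over all genes. TGATGNAA and the Kaiso site were in 0 of the 54 promoters, beside 1.34% and 0.789% of all tested genes. The 0 says only that these letters are not in these windows.

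The largest falls were in ZBTB39, ZSCAN16, ZSCAN25, ZBTB42 and ZBTB45. ZBTB39 (ENSG00000166860), a factor with 7 matched fingers, had 1.69, 1.89 and 2.02 RPKM in the depleted libraries, against 6.17, 6.23 and 6.08 RPKM in the full libraries. It was 3.3-fold lower in depleted medium, and both groups were tight (log2 -1.32, SE 0.08, limma adjusted p = 6.02e-07). ZSCAN16 (ENSG00000196812) had 1.79, 1.61 and 1.36 RPKM in depleted against 4.84, 4.45 and 4.55 RPKM in full medium. No library of the groups overlapped, and the level was 2.91-fold lower (log2 -1.12, SE 0.1, limma adjusted p = 1.13e-05). ZSCAN25 (ENSG00000197037) had 3.88, 3.73 and 3.48 RPKM in depleted and 7.45, 9.55 and 7.61 RPKM in full libraries. It was 2.22-fold lower (log2 -0.96, SE 0.1, limma adjusted p = 2.19e-05).

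ZBTB42 (ENSG00000179627), a factor of muscle in which a mutation causes lethal contractures, had 0.8, 0.72 and 0.47 RPKM in depleted against 1.74, 1.98 and 2.22 RPKM in full medium. Its levels are among the lowest of the tested members, with an estimated 28 reads in its lowest library, and the groups did not overlap (2.98-fold lower, log2 -0.84, SE 0.13, limma adjusted p = 0.000295). ZBTB42 passed the filter only through its repleted and full libraries. ZBTB45 (ENSG00000119574) had 4.3, 4.72 and 5.27 RPKM in depleted and 9.29, 8.73 and 7.96 RPKM in full libraries. It was 1.82-fold lower, with the groups apart (log2 -0.75, SE 0.1, limma adjusted p = 0.000124).

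Beyond these, ZSCAN9 (log2 -0.52), ZSCAN21 (-0.52), ZSCAN12 (-0.44), ZSCAN30 (-0.41) and ZBTB12 (-0.25) fell in all 17 settings. ZSCAN21 averaged 4.59 ± 0.615 RPKM in depleted and 6.98 ± 0.255 RPKM in full medium, and ZSCAN30 averaged 10.2 ± 0.149 RPKM in depleted and 13.9 ± 1.04 RPKM in full medium (SD, n = 3 each). Less firm were ZBTB7C (log2 -0.55, limma adjusted p = 0.0168), ZBTB16 (-0.46, 0.0199) and ZBTB46 (-0.36, 0.0297). ZBTB16, known as PLZF and as a regulator of innate-like T cells, averaged 1.98 ± 0.321 RPKM in depleted and 3.09 ± 0.509 RPKM in full medium, and ZBTB46, a marker of classical dendritic cells, averaged 1.43 ± 0.235 RPKM in depleted and 2.12 ± 0.255 RPKM in full medium. Their calls were lost without some single libraries: ZBTB7C without full replicate 1, full replicate 3 or depleted replicate 1 (limma adjusted p up to 0.0607 over all settings), ZBTB16 without full replicate 2 or 3 or depleted replicate 1 or 2 (up to 0.0738), and ZBTB46 without full replicate 1 or 2 or depleted replicate 1 or 3 (up to 0.103). The remaining lower calls, ZBTB4 and ZBTB24, had log2 changes of -0.27 and -0.23 and were likewise not stable. ZBTB4 is a further reader of methylated CpG, and mutations in ZBTB24 cause an immunodeficiency with unstable centromeres.

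The metal response element core was in 17 of the 47 tested members with a promoter, 36.2%, against 33.8% of all tested genes, and in 6 of 16 higher members (37.5%), 4 of 13 lower members (30.8%) and 7 of 18 not called (38.9%). Its share among members was thus near that of any gene. Among the largest falls, ZBTB39 and ZBTB42 held the core, ZSCAN25 and ZBTB45 held 0 matches, and ZSCAN16 had no promoter sequence. Among the largest rises, ZBTB7B, ZBTB11 and ZSCAN18 held the core. ZBTB3, ZBTB2, ZBTB37 and ZBTB14 held 0 matches, and ZBTB40 had no promoter sequence. A link of the core to either direction was not tested. Since the study concerns zinc, the stretches of 2 of the members that fell most are shown, with the core in capitals on either strand:
ZBTB39: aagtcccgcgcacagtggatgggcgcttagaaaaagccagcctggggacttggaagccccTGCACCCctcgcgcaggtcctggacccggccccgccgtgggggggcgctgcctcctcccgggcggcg
ZBTB42: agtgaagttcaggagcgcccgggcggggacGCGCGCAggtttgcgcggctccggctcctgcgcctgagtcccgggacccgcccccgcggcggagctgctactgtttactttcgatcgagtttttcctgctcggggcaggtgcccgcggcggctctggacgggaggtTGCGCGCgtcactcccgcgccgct

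The ZBTB39 stretch is chr12:57006631-57006757 on the minus strand of GRCh38.p14, with 1 match that ends 144 bases before the start. The ZBTB42 stretch is chr14:104800911-104801100 on the plus strand, with 2 matches that end 153 and 17 bases before the start. The first of these lies on the opposite strand. Member promoters held a median of 20.5 CpG sites in 250 bases, against 21 for all tested genes, so they are CpG-rich like those of other expressed genes.

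The other tested members, 20 in all, were not called, with log2 changes of -0.41 to 0.30, and several of the best known are among them. ZBTB33 (Kaiso) averaged 16.2 ± 0.839 RPKM in depleted and 16.4 ± 1.23 RPKM in full medium (SD, n = 3 each; log2 -0.01, SE 0.07, limma adjusted p = 0.885). ZBTB17, known as MIZ1 and as a partner of MYC in repression, averaged 13.2 ± 2.33 RPKM in depleted and 13.9 ± 1.74 RPKM in full medium (log2 -0.07, SE 0.13, limma adjusted p = 0.644). ZBTB18, a transcriptional repressor with a role in brain development and known as RP58, averaged 10.8 ± 0.321 RPKM in depleted and 11.1 ± 1.11 RPKM in full medium (log2 -0.03, limma adjusted p = 0.751). ZBTB48 varied widely within groups, with 14.94, 12.84 and 11.65 RPKM in depleted against 17.33, 23.43 and 13.68 RPKM in full libraries. These overlap, and its log2 change of -0.41 had an SE of 0.18 (limma adjusted p = 0.0781). A p above the threshold does not show that these genes kept their level.

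The summed level of the 41 ZBTB genes without ZBTB8OS was 338, 319 and 326 RPKM in depleted libraries, against 288, 287 and 279 RPKM in repleted and 283, 298 and 278 RPKM in full libraries. Every depleted library was above all others. The 21 ZSCAN genes summed to 93.5, 89.5 and 93.7 RPKM in depleted, 102, 99.4 and 96.5 RPKM in repleted and 99.2, 103 and 93.3 RPKM in full libraries. Here depleted and full libraries overlap, while every depleted library was below every repleted one. By an exact two-sided permutation test, depleted minus full medium gave p = 0.1 for ZBTB, with a difference of 41.0 RPKM, and p = 0.3 for ZSCAN, with a difference of -6.22 RPKM; 0.1 is the smallest p that 3 against 3 libraries can give. For depleted minus repleted medium this permutation test gave p = 0.1 for both families. The differences were 42.7 RPKM for ZBTB and -7.01 RPKM for ZSCAN.

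Close relatives did not always move alike. The ZBTB7 genes are paralogs with 3 matched fingers each, and ZBTB7A and ZBTB7B rose by 0.42 and 0.84 on the log2 scale while ZBTB7C had a log2 change of -0.55, from 0.66, 0.9 and 1.31 RPKM in depleted against 1.96, 1.6 and 1.97 RPKM in full libraries. ZBTB1 and ZBTB25 lie on chromosome 14 and overlap on opposite strands. This pair differed in its calls but not in direction. ZBTB1 was called at 0.52, and ZBTB25, at 0.30, was not (limma adjusted p = 0.165), its full libraries ranging from 2.69 to 5.31 RPKM. In depleted against repleted medium their log2 changes were 0.37 and 0.39, again with only ZBTB1 called. The difference between the changes of these genes was not tested. Of the ZSCAN5 genes, near copies of each other on chromosome 19 among which reads may be split, only ZSCAN5A was tested, with 5.15 ± 1.09 RPKM in depleted and 4.72 ± 0.184 RPKM in full medium (log2 0.09, limma adjusted p = 0.62).

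The number of zinc fingers did not order the changes. Fingers were counted in the longest annotated protein of each gene as 2 cysteines with 2 to 4 residues between them, then 12 residues, then 2 histidines with 3 to 5 residues between them, which misses fingers of other spacing. The tested ZBTB proteins held 1 to 14 matched fingers with a median of 4, and the ZSCAN proteins 2 to 14 with a median of 6. Across genes, which are not independent replicates and share the same libraries, Spearman's rho between finger number and log2 change in depleted against full medium was -0.16 over 38 ZBTB genes and 0.06 over 15 ZSCAN genes. Between mean level and log2 change it was 0.15 and 0.07. Among ZBTB genes with at most 4 fingers 10 were higher and 5 lower of 23, and among those with more than 4 fingers 6 were higher and 4 lower of 15, beside 29.8% higher and 31.2% lower of all genes tested.

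**Figure D3:**
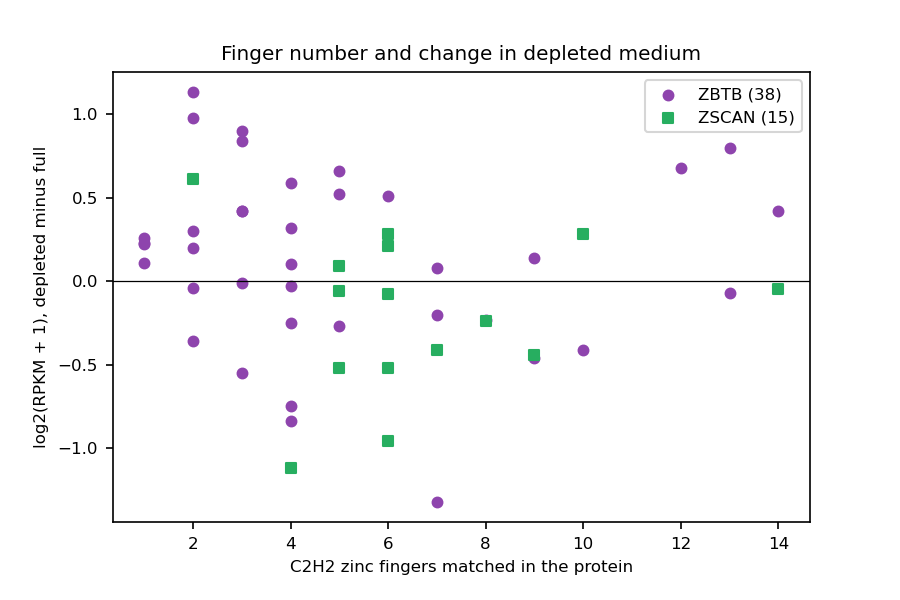
Matched C2H2 fingers per protein against the log2 change in depleted minus full medium for 38 ZBTB genes (circles) and 15 ZSCAN genes (squares), ZBTB8OS left out. Genes with 2 to 4 fingers span nearly the whole range of changes, and the genes with 12 to 14 fingers lie between -0.07 and 0.80.

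Of the ZSCAN genes, 5 lie in a cluster of SCAN domain genes on chromosome 6, which was singled out after its values were seen. In genome order the 12 protein-coding genes are ZNF165, ZSCAN16, ZKSCAN8, ZSCAN9, ZKSCAN4, NKAPL, ZSCAN26, PGBD1, ZSCAN31, ZKSCAN3, ZSCAN12 and ZSCAN23. Of the 11 tested, 8 were lower and 1 higher in depleted than in full medium, beside 31.2% of all genes tested that were lower and 29.8% that were higher; since the cluster was picked for its values, nothing is read from this count. Members ZSCAN16, ZSCAN9 and ZSCAN12 were lower, at -1.12, -0.52 and -0.44 on the log2 scale, while ZSCAN31 (0.21, limma adjusted p = 0.354) and ZSCAN23 (-0.06, 0.778) were not called. Their neighbours PGBD1, ZKSCAN3, ZKSCAN4 and ZKSCAN8 had log2 changes of -1.98, -1.26, -1.13 and -0.47. ZSCAN26 had 2.47 ± 0.181 RPKM in depleted, 6.9 ± 1.23 in repleted and 6.73 ± 0.361 in full medium (SD, n = 3 each; depleted against full log2 -1.16, limma adjusted p = 2.38e-05). It is no member under the rule, since the deposited table lists its identifier (ENSG00000197062) under another symbol and as a pseudogene. At the edge of the cluster ZNF165 went the other way, with 4.46 ± 0.478 RPKM in depleted, 1.35 ± 0.428 in repleted and 1.45 ± 0.197 in full medium (log2 1.16, limma adjusted p = 0.000137).

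**Figure D4:**
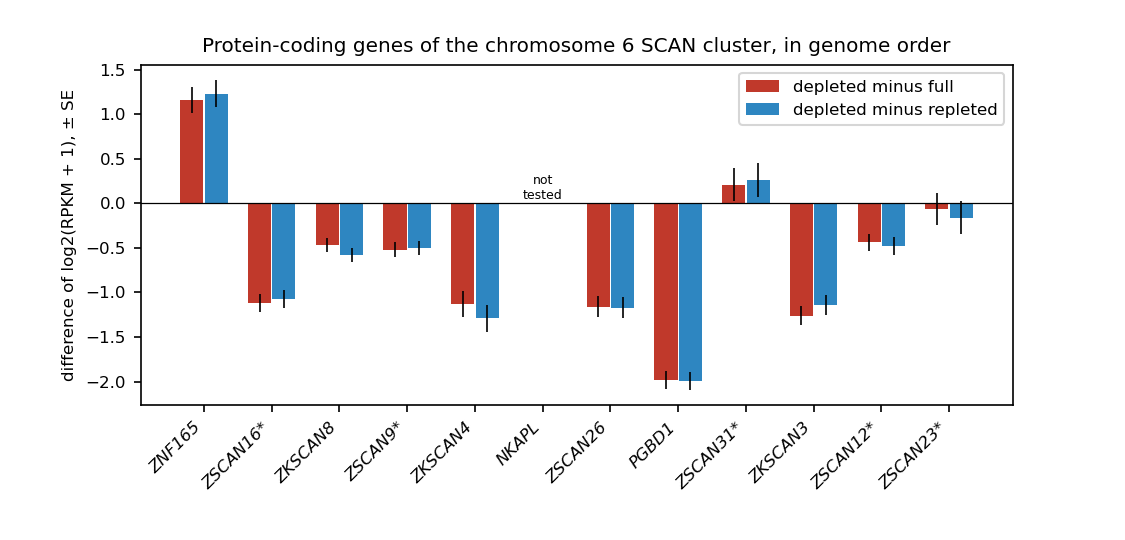
Difference of log2(RPKM + 1), with bars for the SE, of the protein-coding genes of the chromosome 6 SCAN cluster in genome order, depleted minus full (red) and depleted minus repleted (blue), which share the depleted libraries; an asterisk marks members. In all 8 genes were lower in depleted than in full medium, ZNF165 at the left edge was higher, and ZSCAN31 and ZSCAN23 were not called.

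For ZBTB11 and ZSCAN16, antisense transcripts listed as genes of their own passed the filter. ZBTB11-AS1 had 0.8, 0.54 and 0.64 RPKM in depleted, 6.45, 6.97 and 6.36 RPKM in repleted and 7.04, 6.68 and 7.78 RPKM in full libraries. It fell by 2.30 on the log2 scale in depleted against full medium (limma adjusted p = 7.91e-08), while ZBTB11 itself rose. ZBTB11-AS1 passed the filter only through its repleted and full libraries. ZSCAN16-AS1 had 2.95, 1.99 and 2.21 RPKM in depleted, 5.74, 5.64 and 5.49 RPKM in repleted and 5.88, 5.79 and 5.91 RPKM in full libraries, and fell by 1.03 (limma adjusted p = 2.52e-05) as ZSCAN16 did. In all, 28 of the 54 tested members overlap a gene on the opposite strand in GENCODE release 29, and without stated use of the strand the reads of such pairs may be shared. Among the largest changes this touches ZBTB11, ZBTB37, ZSCAN16, ZSCAN18 and ZBTB7B. The partners of the last 2 were near 0: ZNF135, opposite ZSCAN18, had 0.0333 ± 0.0577 RPKM in depleted and 0.0133 ± 0.0153 RPKM in full medium, and DCST2, opposite ZBTB7B, had 0.07 ± 0.0346 RPKM in depleted and 0.04 ± 0.0529 RPKM in full medium.

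**Figure D5:**
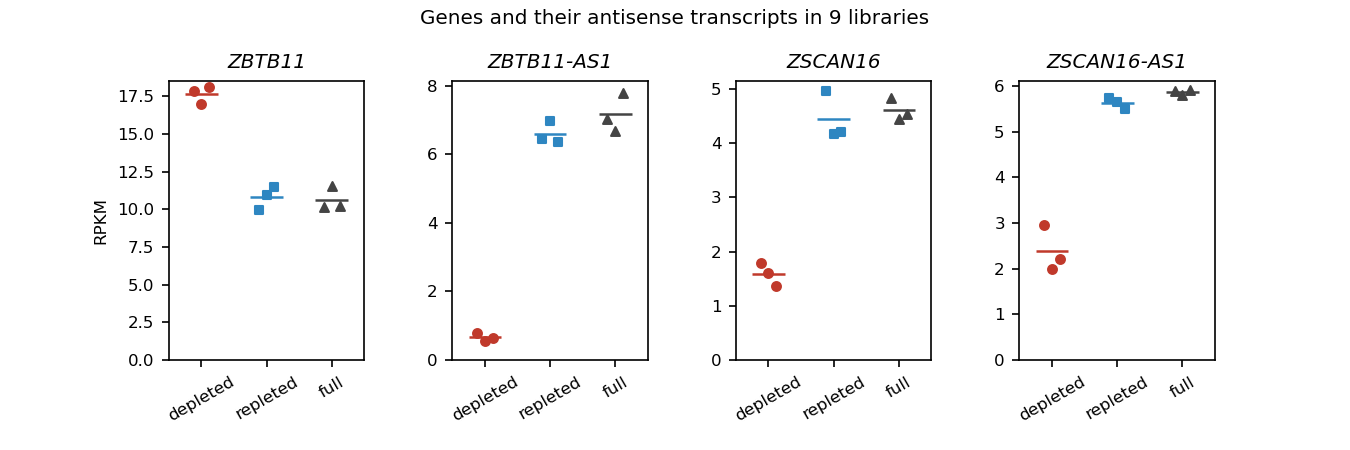
RPKM in each of 9 libraries (points) and the group mean (line) for ZBTB11, ZBTB11-AS1, ZSCAN16 and ZSCAN16-AS1, depleted, repleted and full from left to right. ZBTB11 is higher in depleted libraries, at 16.98 to 18.11 RPKM, where ZBTB11-AS1 is at 0.54 to 0.8 RPKM; ZSCAN16 and ZSCAN16-AS1 are both lower there.

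Depleted against repleted medium separates Zn(II) from anything else removed by the depletion; it shares the depleted libraries with the comparison above, so the 2 sets of values are not independent. Here 37 of the 54 tested members were called, 21 higher and 16 lower, which is 68.5%, beside 60.7% of all genes tested (29.5% higher and 31.2% lower). The libraries did not overlap for 40 members, beside 65.2% of all genes. Among the large changes, ZBTB3 had 5.94, 4.68 and 4.34 RPKM in depleted against 1.51, 1.98 and 2.34 RPKM in repleted libraries (log2 1.02, SE 0.17, limma adjusted p = 0.000611). ZBTB39 had 1.69, 1.89 and 2.02 RPKM in depleted against 6.1, 6.36 and 6.23 RPKM in repleted libraries (log2 -1.34, SE 0.08, limma adjusted p = 5.74e-07). In both genes the repleted libraries stood with the full ones, away from the depleted ones. The log2 changes of ZBTB40, ZBTB7B, ZBTB37, ZBTB2 and ZBTB11 were 0.86, 0.87, 0.83, 0.81 and 0.66, and those of ZSCAN16, ZBTB42, ZSCAN25 and ZBTB45 were -1.07, -0.95, -0.93 and -0.86.

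Several members were called only against one of the media, and the difference between media was called for none of them. ZBTB49 had 1.97, 3.36 and 2.31 RPKM in depleted, 1.44, 1.07 and 1.31 RPKM in repleted and 1.62, 2.2 and 3.3 RPKM in full libraries. Its repleted libraries were the lowest, and it was called in depleted against repleted medium (log2 0.63, SE 0.2, limma adjusted p = 0.0231) but had a log2 change of 0.08 against full medium (limma adjusted p = 0.741). The call against repleted medium was lost without depleted replicate 2, without repleted replicate 2 and with no filter on low values (limma adjusted p up to 0.0887). ZBTB38 (log2 0.24), ZBTB10 (0.25), ZBTB47 (-0.22) and ZSCAN22 (-0.39) were likewise called against repleted medium alone, with changes of 0.14, 0.20, -0.20 and -0.24 against full medium. ZBTB10 is known as a repressor of the Sp transcription factors. ZBTB22 and ZBTB4 were called against full medium alone, with changes of 0.22 and -0.27 there and 0.17 and -0.18 against repleted medium.

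Repleted against full medium asks what the return of Zn(II) left unrestored. By limma, 0 of the 54 tested members were called, beside 0.0317% of all genes tested, 5 genes, all lower. At an unadjusted p under 0.05 there were 2 members, against 7.76% of all genes tested. The lowest adjusted p of a member was 0.591, that of ZBTB49 (log2 -0.54). All other members lay between -0.11 and 0.17 on the log2 scale. Repleted and full libraries did not overlap for 3 members, ZBTB34, ZBTB49 and ZSCAN22, beside 12.4% of all genes. For ZBTB2 the repleted libraries had 7.84, 6.99 and 8.28 RPKM and the full libraries 6.73, 7.01 and 6.44 RPKM, a log2 change of 0.17 (limma adjusted p = 0.618).

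Genes of the same pathways were taken from lists chosen with earlier results of these data known; each is given as counts in depleted against full medium, to be read beside the 60.9% of all genes called there. BTB zinc finger genes under other names had 0 higher and 3 lower of 7 tested (median log2 -0.13). These were HIC2 (-0.19), ZNF131 (-0.25, lost if full replicate 1 is left out, or either of depleted replicates 1 and 3) and PATZ1 (-0.13, limma adjusted p = 0.0487, lost in 14 of 17 settings), and GZF1 (-0.21) did not pass. SCAN domain genes under other names had 10 higher and 9 lower of 28 (median log2 0.06). Their largest level was that of ZNF444, at 107 ± 2.16 RPKM in depleted, 37.9 ± 4.32 in repleted and 38 ± 2.51 in full medium (SD, n = 3 each; log2 1.46, limma adjusted p = 3.18e-07). PGBD1, a SCAN protein with a domain derived from a transposase, had 0.987 ± 0.172 RPKM in depleted, 6.86 ± 0.341 in repleted and 6.81 ± 0.438 in full medium. ZNF24 averaged 28.4 ± 0.58 RPKM in depleted and 45.2 ± 1.09 RPKM in full medium, and ZKSCAN3, a repressor of autophagy genes, averaged 1.04 ± 0.108 RPKM in depleted and 3.89 ± 0.419 RPKM in full medium.

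Of 22 genes for corepressors and for the CUL3 ligase, 5 were higher and 9 lower (median log2 -0.11). The remodeller subunit CHD4 averaged 73.5 ± 3.89 RPKM in depleted and 124 ± 12.8 RPKM in full medium (log2 -0.75, limma adjusted p = 1.01e-05), and BCORL1 averaged 6.07 ± 0.546 RPKM in depleted and 13.1 ± 1.53 RPKM in full medium (log2 -1.0). GPS2, a subunit of the NCOR complex, averaged 80.7 ± 2.36 RPKM in depleted and 52 ± 2.16 RPKM in full medium (log2 0.62), and the scaffold SIN3A averaged 34.9 ± 1.28 RPKM in depleted and 24.4 ± 1.05 RPKM in full medium (log2 0.50). CUL3 averaged 50.2 ± 2.82 RPKM in depleted and 39.2 ± 1.66 RPKM in full medium (log2 0.35, limma adjusted p = 0.00033). Of the KLHL genes, whose BTB proteins deliver substrates to CUL3, 13 were higher and 8 lower of 27 tested (median log2 0.04), among them KLHL24 (1.51), KLHL10 (1.53), KLHL15 (0.75) and KLHL17 (-1.81). KLHL10 averaged 2.75 ± 0.19 RPKM in depleted, 0.247 ± 0.185 in repleted and 0.3 ± 0.155 in full medium. It passed the filter only through the depleted libraries, so nothing is read from its rise. Of 6 tested partners and targets of ZBTB factors, 1 was higher and 3 lower (median log2 -0.01). MYC, the partner of ZBTB17, averaged 23.6 ± 0.244 RPKM in depleted, 43.5 ± 1.12 in repleted and 42.1 ± 2.57 in full medium (log2 -0.81, limma adjusted p = 7.45e-07). MAX had a log2 change of -0.33, CDKN1C of 0.32 and CDKN1A, a cell cycle inhibitor repressed by ZBTB17 with MYC, of -0.13. The last 2 were called but lost without single libraries, CDKN1C without full replicate 1 or 2 or depleted replicate 1 and CDKN1A without full replicate 2 or 3 or depleted replicate 1.

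The remaining genes of the zinc check were called in depleted against full medium as well. MT1X, MT1F and SLC30A1, targets of MTF1, had log2 changes of -5.80, -4.30 and -1.14, and the importer SLC39A10 of 1.48. Of these 5 genes with MT2A, 2 were also called lower in repleted than in full medium, MT2A (log2 -1.02, limma adjusted p = 0.00114) and MT1F (-1.23, limma adjusted p = 0.0382, lost in 13 of 17 settings). No ZBTB or ZSCAN gene was among the 5 genes called in that comparison.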

How the data were processed

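Polyadenylated RNA of HEK293 Freestyle cells was sequenced in 9 libraries, 3 for each medium, grouped by the sample titles. The authors deposited 1 table of log2(RPKM + 1) values per Ensembl gene, with a pseudocount of 1, and it holds no counts. The submitters' processing notes name RSEM 1.2.6, Bowtie 1.0.1, BWA 0.7.12-r1039, bedtools and the builds hg19 and GRCh37, with no role or order; whether counting used the strand is not given in the sources used here. There were 57766 genes, 20320 blank rows and 0 columns of unknown sample. Depth was estimated from the spacing of low values, of which 60.5% to 67.3% per library came out whole within 0.1 read, so no interval was computed from it. The search covered a preset range of depths, and a multiple of the true depth would also give whole numbers, so depths and reads per gene are rough.

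The model was limma 3.58.1 in R 4.3.3 with 1 mean per group over all 9 libraries and a variance trend, for the 15774 genes that reached 1 RPKM in 3 or more libraries. Adjustment was by Benjamini-Hochberg over all of them at 0.05. A trial of limma on simulated data used independent noise and few changed genes. Many genes change in the real data, so that trial is no check of the calls given here. The p-values measure the spread between these cultures. Members and companion lists were chosen with earlier results of these data known. Members are named where called with a log2 change of at least 0.4 in either depleted comparison, or among the 5 highest levels, with full statistics from 0.6; of each companion list the 4 genes with the smallest p are named. CUL3, DCST2, ZNF135, GAS5, the cluster on chromosome 6, the antisense genes, the members of smaller or no change and the promoters shown were picked after their values were seen.

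Alternatives were a pseudocount of 0.1, no filter, the 6 libraries compared, the replicate number as a block, median centring, quantile normalization and each library left out in turn. A filter on the mean over 9 libraries (1 RPKM) and a fit of protein-coding genes only were chosen after seeing the data. Libraries with the same replicate number had residual correlations of -0.014 to 0.073 and others of -0.061 to 0.042, so the numbers were not taken as pairs. Gene names, coding sequences, strand neighbours and gene order came from GENCODE release 29, and promoters from RefSeq build GRCh38.p14; both differ from the build of the values, and no coordinates other than those of the promoters are given. Finger counts used Biopython 1.88, and figures matplotlib 3.10.9 in Python 3.11.15.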

Additional observations from a re-analysis of the deposited data

How the results depend on the processing

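The counts of called ZBTB and ZSCAN genes kept within 1.5 times under all 17 alternatives: 26 to 33 without single libraries and 29 to 35 otherwise in depleted against full medium (34), 31 to 38 in both cases in depleted against repleted medium (37), and 0 throughout in repleted against full medium. The lowest counts in both depleted comparisons came without depleted replicate 1, and in depleted against repleted medium the count of 31 also came with no filter. With the replicate number as a block they were 32, 35 and 0; the numbers do not pair the libraries, so this is no check of strength. Median centring gave 21 higher and 14 lower members and quantile normalization 20 and 11 in depleted against full medium, and 22 and 14 and 25 and 13 against repleted medium. The median log2 change of all genes was 0.047 after median centring, against 0.001 as reported, in depleted against full medium, and 0.04 against -0.01 in depleted against repleted medium. BTB zinc finger genes under other names had 1 to 3 calls without single libraries (1 in the absence of full replicate 1 and of depleted replicates 1 and 3, each taken singly), and partners and targets 2 to 5 (2 without depleted replicate 1). The cause was not tested. No result reversed. In depleted against full medium the calls of ZBTB24, ZSCAN20, ZBTB5, ZBTB44, ZBTB22 and ZSCAN29 were lost without at least 4 single libraries each. Over all 17 settings their limma adjusted p reached 0.384, 0.127, 0.0878, 0.16, 0.094 and 0.0649. The calls of ZBTB24, ZSCAN20, ZBTB44 and ZBTB22 were also lost with no filter, and that of ZBTB24 after median centring and quantile normalization too. The call of ZBTB4 was lost without full replicate 3 and after quantile normalization (limma adjusted p up to 0.178). Against repleted medium 10 of the 37 calls were lost in some setting, most often ZBTB47, which held in 5 of 17, and ZSCAN20, in 7. The weakest tested member had an estimated 28 reads in its lowest library, and depth per gene was estimated, not given.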
